A study of Arabidopsis thaliana with 24 samples.

Results

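The 57 Arabidopsis thaliana genes described here each carried 1 alternative splice site event in seedlings with a mutated RRC1 gene. They are the loci with an event labelled Alt3ss (alternative 3' splice site) or Alt5ss (alternative 5' splice site) in the authors' splicing tables of EMS27 against MLB or of rrc1-689 against Col-0. Left out were 5 named loci, 4 of which held such an event. The 57 were 41 of 264 loci with any listed event for EMS27 and 41 of 270 for rrc1-689, with 25 in both, and each had 1 such event, 34 Alt3ss and 7 Alt5ss for EMS27 and 35 and 6 for rrc1-689. The same loci held 27 listed Io introns for EMS27 and 25 for rrc1-689, an Io intron being an annotated intron of which a part is exon in another isoform. All 57 loci matched the annotation and 28 had a gene symbol.

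RNA came from whole seedlings that shared 2 days of cold stratification, 6 h of white light (50 µmol/m2s) and then 60 h of red light (19 µmol/m2s), with 3 libraries in each of 4 groups. MLB is phyB-9, a phytochrome B mutant, carrying ML1pro::PHYB, whose promoter drives PHYB in the epidermis, and EMS27 is an rrc1 mutant isolated in that line. Col-0 is the wild type and rrc1-689 is a mutant in that background, so EMS27 and rrc1-689 differ in phyB as well as in their rrc1 allele. The labels give 4 °C for the light treatments, and they leave unsaid whether replicate libraries had cultures of their own. The p-values therefore measure only how far these libraries differ, which may be technical. The tables held no row of RRC1 or PHYB, no level per gene and no event in any of 12 cell type markers, so neither the genotypes nor the tissue could be checked against expression. Over the 41 events of a comparison a library held 4427 to 5864 reads, with a median of 67 to 103 reads per event.

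RRC1 is a protein with an RNA recognition motif and a domain rich in arginine and serine, related to the human splicing factor SR140 of the U2 small nuclear ribonucleoprotein. U2 binds the branch point ahead of a 3' splice site, and the AG at the end of the intron is chosen further downstream with the help of a pyrimidine-rich stretch bound by U2AF. When 2 AGs compete, use of the upstream one gives a shorter intron and a longer exon, which can add codons, shift the reading frame or bring in a stop codon. The level given for an event is the percentage of its junction reads that join the longer exon, called the inclusion level, so at an Alt3ss event a higher level means more use of the upstream 3' site.

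Sites of 5 events are printed to show what the upstream and downstream 3' sites looked like in events that rose in both mutants, AT5G08650 and VLN3 by less in rrc1-689 than in EMS27, and those of AT1G55340 because its level moved the other way. Each window has 23 intron bases and 3 exon bases of TAIR10.1, 5' to 3', and the capitals mark the AG at which the intron ends.
HCF109 upstream site (chr5:14236404-14236429, minus strand): actgactatggtagttgattaAGatc
HCF109 downstream site (chr5:14236385-14236410, minus strand): taagatcgcgttggatgttgcAGagg
TTL upstream site (chr5:23554977-23555002, minus strand): tttctactttctcgctttgtaAGatc
TTL downstream site (chr5:23554938-23554963, minus strand): tggagggcatttgaatgttgcAGctg
AT5G08650 upstream site (chr5:2807260-2807285, minus strand): tacatttctacgaatgcttgaAGatt
AT5G08650 downstream site (chr5:2807068-2807093, minus strand): ttgacatacacatatacttgcAGgct
VLN3 upstream site (chr3:21245159-21245184, minus strand): tcttttgttaaaatgacctgtAGaat
VLN3 downstream site (chr3:21244986-21245011, minus strand): tggtatgtttacctgtcatacAGgtg
HCF107 upstream site (chr3:5810356-5810381, minus strand): tcttgtaaattaacacttagcAGact
HCF107 downstream site (chr3:5810257-5810282, minus strand): ggtgaaagtgtattccggtttAGgct
AT1G55340 upstream site (chr1:20652879-20652904, plus strand): ttgttatgtttctgcggtgatAGgat
AT1G55340 downstream site (chr1:20652909-20652934, plus strand): gattctctagtcaatgtgcggAGatc
The regions between these sites span 19 bases in HCF109, 39 in TTL, 192 in AT5G08650, 173 in VLN3, 99 in HCF107 and 30 in AT1G55340. In HCF109, TTL and AT5G08650 the base before the upstream AG is an A, where the downstream site of each has a C. The printed events are a selection from the 25 listed in both comparisons and do not stand for all of them. By the scores given below, the upstream site was the weaker one in all 5 printed events that rose. Over the 21 Alt3ss pairs listed in both comparisons, the site gained in the mutants scored lower in 15.

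Most events shifted towards inclusion in both mutants. With limma on the logit of the level, 32 of 41 events were higher and 5 lower in EMS27, and 34 were higher and 5 lower in rrc1-689, at a Benjamini-Hochberg adjusted p of 0.05. Events were listed by the authors for a difference in these same libraries, and of all 325 events listed for EMS27, 89.5% were called, 58.2% as higher and 31.4% as lower. For rrc1-689 it was 88.7% of 328 events, 63.4% higher and 25.3% lower, so the number called supports nothing. The 3 libraries of mutant and control did not overlap in 40 of 41 events in each comparison, against 89.2% and 92.4% of all listed events. In direction, 82.9% of the events were at a higher level in EMS27 against 64.6% of all listed events, and 87.8% in rrc1-689 against 72.0%. From the summed reads of each group, the median signed change was 17.9 percentage points in EMS27, where it was 7.56 over all listed events, and 16 in rrc1-689, where it was 8.34. These signed medians in part repeat the difference in direction. The median absolute change was 22.7 points against 14.3 over all listed events in EMS27, and 19.4 against 12.25 in rrc1-689. Control levels were mostly low, with 26 of 41 events under 10% in MLB and 29 of 41 in Col-0. No test compared these events with other kinds, and the authors' threshold of 0.05 in the fraction sets the smallest changes, the nearest to it being AT5G61820 in rrc1-689, with a mean over libraries of 5.05 points, and AT5G64400 in EMS27, with 6.25 points.

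**Figure D1:**
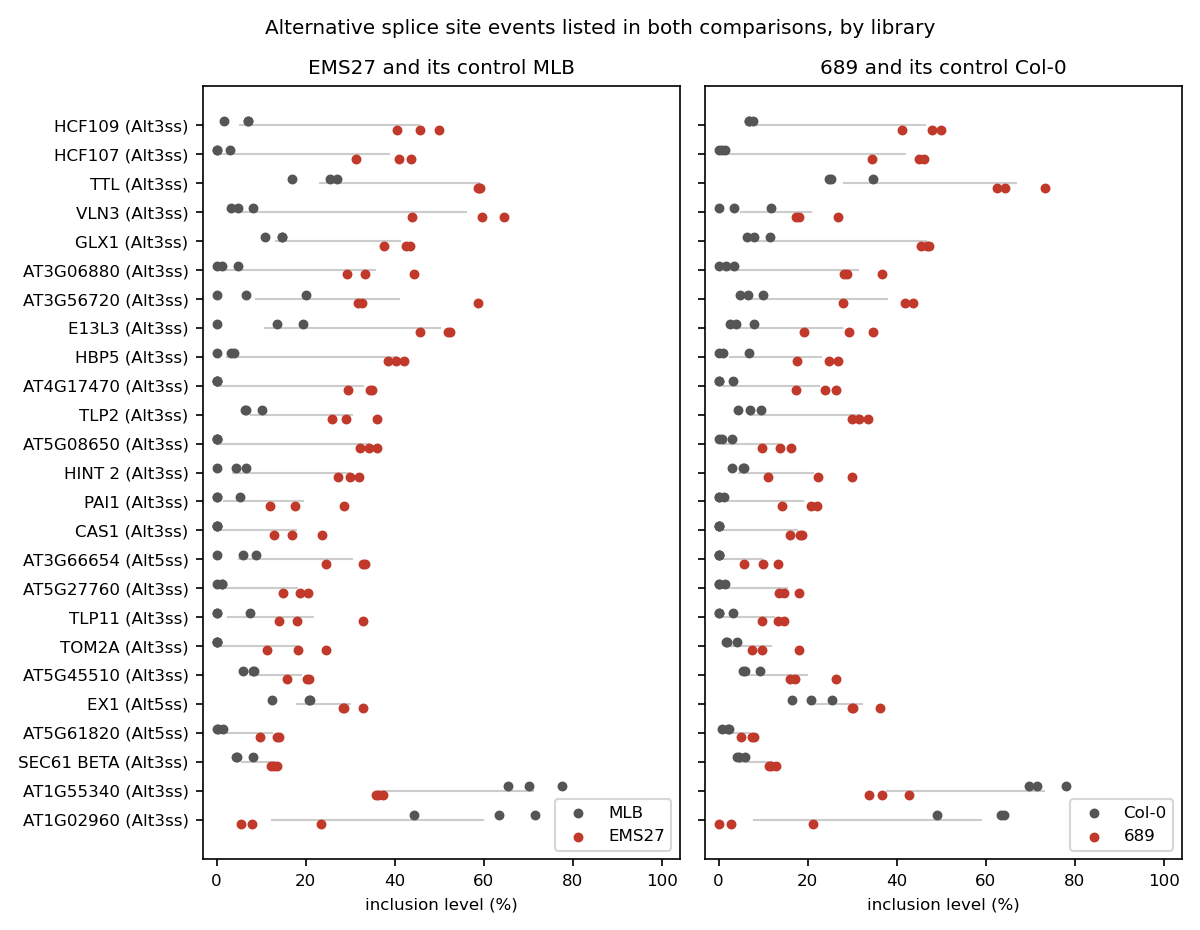
Inclusion level in percent (x axis) of the 25 events listed in both comparisons (y axis), each point 1 library, grey for the control and red for the mutant, with a line between the group means. In 23 events all red points lie to the right of the grey ones in both panels, and in AT1G55340 and AT1G02960 to the left.

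HCF107, needed for the chloroplast psbH transcript of photosystem II, was at 2.96, 0 and 0% in the 3 MLB libraries and at 40.9, 43.6 and 31.3% in EMS27. It was at 0.813, 0 and 1.49% in Col-0 and at 45.0, 46.1 and 34.5% in rrc1-689, so the upstream site was almost unused in both controls and the lowest mutant library stood at 31.3%. The change was 37.6 points in EMS27 (limma logit difference 4.21 ± 0.56 SE, n = 3, adjusted p = 0.00114) and 41.1 points in rrc1-689 (4.33 ± 0.44, adjusted p = 0.000733). HCF109, the chloroplast peptide chain release factor that ends translation at UGA codons, rose from 5.24% ± 3.10 (SD, n = 3) in MLB to 45.4% ± 4.71 in EMS27, and from 7.11% ± 0.48 in Col-0 to 46.4% ± 4.62 in rrc1-689 (adjusted p = 0.00166 and 0.000585, limma). The lowest mutant library stood at 40.6% and the highest control library at 7.66%.

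AT5G08650, a small GTP-binding protein of the LepA translation factor family in chloroplasts, had no read of the upstream site among 977 in MLB, which allows a level of up to 0.307%. In EMS27 its 3 libraries were at 34.3, 36.1 and 32.2% (limma adjusted p = 1.1e-05). In Col-0 they were at 0.709, 2.93 and 0%, and in rrc1-689 at 9.71, 13.9 and 16.4% (limma adjusted p = 0.00739), so the groups did not overlap in either comparison, and the rrc1-689 libraries lay below those of EMS27. HBP5, a SOUL family heme-binding protein, rose from 2.35% ± 2.05 to 40.3% ± 1.82 in EMS27 and from 2.62% ± 3.64 to 23% ± 4.83 in rrc1-689 (limma adjusted p = 0.00176 and 0.00749, n = 3). EX1, EXECUTER1, which relays singlet oxygen signals from chloroplasts, was not called in either mutant: its Alt5ss event was at 12.4, 20.8 and 21.1% in MLB and 28.5, 32.8 and 28.7% in EMS27 (limma adjusted p = 0.0547), and went from 20.9% ± 4.49 to 32.1% ± 3.52 in rrc1-689 (limma adjusted p = 0.0563). The mutant libraries of EX1 lay above the control ones in both comparisons, and edgeR's quasi-likelihood test called it in both (Benjamini-Hochberg adjusted p = 0.00879 and 0.0162). Without the third Col-0 library limma called it in rrc1-689 (adjusted p = 0.0434). On the level itself limma called it in EMS27 and rrc1-689 (adjusted p = 0.016 and 0.0181). In EMS27 limma also called it with 1 in place of 0.5 added to the reads (adjusted p = 0.0476). Over events with 10 or more reads in every library it did so too (0.0461).

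VLN3, villin 3, which bundles actin filaments, was at 3.15, 4.85 and 8.25% in MLB and at 44.0, 64.5 and 59.6% in EMS27 (limma adjusted p = 0.000838). In Col-0 it was at 11.7, 3.51 and 0% and in rrc1-689 at 18, 17.4 and 26.7% (limma adjusted p = 0.0399), a rise of 15.6 points against 50.6 in EMS27. The call in rrc1-689 was lost without any 1 of the rrc1-689 libraries (adjusted p = 0.0767, 0.0827 and 0.106), without the second Col-0 library (0.0614), with 0.1 in place of 0.5 added to the reads (0.0858) and with the replicate block (0.0584). TOM2A, a tetraspanin-like membrane protein that tobamoviruses need to multiply, had 0 of 296 reads at the upstream site in MLB, which allows up to 1.01%, and 18.2, 11.4 and 24.7% in EMS27. It rose from 2.54% ± 1.47 in Col-0 to 11.8% ± 5.51 in rrc1-689 (limma adjusted p = 0.00933, n = 3). E13L3, annotated as a glucan endo-1,3-beta-glucosidase-like protein, rose from 11% ± 9.92 to 50.1% ± 3.81 in EMS27 and from 4.81% ± 2.79 to 27.8% ± 7.88 in rrc1-689 (limma adjusted p = 0.0184 and 0.00319, n = 3). SEC61 BETA, a subunit of the channel that moves proteins into the endoplasmic reticulum, rose from 5.67% ± 2.16 to 12.9% ± 0.678 in EMS27 and from 4.88% ± 0.897 to 12% ± 0.822 in rrc1-689 (limma adjusted p = 0.0197 and 0.00661). Its call in EMS27 was lost without the third EMS27 library (adjusted p = 0.0579) or the second MLB library (0.0567).

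GLX1, a glyoxalase family protein, was at 14.7, 10.8 and 14.6% in MLB and 43.3, 37.7 and 42.5% in EMS27, and at 11.7, 7.89 and 6.38% in Col-0 and 45.5, 46.8 and 47.1% in rrc1-689 (limma adjusted p = 0.00238 and 0.000886). CAS1, cycloartenol synthase of sterol synthesis, had no read of the upstream site among 272 in MLB and 318 in Col-0, which allows up to 1.1% and 0.943%, and reached 17.8% ± 5.49 in EMS27 and 17.7% ± 1.43 in rrc1-689 (n = 3). PAI1, phosphoribosylanthranilate isomerase of tryptophan synthesis, went from 1.75% ± 3.04 to 19.4% ± 8.47 and from 0.433% ± 0.75 to 19.1% ± 4.18 (limma adjusted p = 0.00798 and 0.00108). TTL, the transthyretin-like protein of uric acid breakdown, already used the upstream site in the controls, at 23.2% ± 5.44 in MLB and 28.2% ± 5.56 in Col-0, and this became the main site in the mutants at 58.9% ± 0.214 and 66.7% ± 5.79 (limma adjusted p = 0.00277 and 0.00229). HINT 2, a histidine triad nucleotide-binding protein, rose by 26.1 points in EMS27 and 16.5 points in rrc1-689.

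The tubby-like genes TLP2 and TLP11 rose by 22.6 and 19.2 points in EMS27 and by 24.6 and 11.5 points in rrc1-689. AT3G56720, annotated as a pre-mRNA-splicing factor, went from 0, 6.52 and 20% in MLB to 31.7, 58.6 and 32.7% in EMS27 (limma adjusted p = 0.0235, and 0.0675 without the second EMS27 library), and rose by 30.6 points in rrc1-689 (limma adjusted p = 0.00204). AT3G06880, a WD40 repeat protein, rose by 33.7 and 29.5 points, and AT4G17470, an alpha/beta-hydrolase, by 32.9 and 21.6 points. AT5G27760, a hypoxia-responsive family gene that overlaps a neighbouring locus, rose by 17.2 and 14.9 points, and AT5G45510, a leucine-rich repeat gene, by 11.4 and 12.9 points. Of the Alt5ss events, AT5G61820 rose by 11.8 and 5.05 points. The cyclophilin-like gene AT3G66654 rose by 25.4 and 9.68 points, but the authors counted a second exclusion junction for it in the EMS27 comparison, so these values are not on the same base.

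In 2 genes listed in both comparisons the level fell, towards the downstream site. AT1G55340, a DUF1639 protein, was at 65.5, 70.2 and 77.6% in MLB and 35.9, 37.3 and 36.2% in EMS27, and at 71.6, 77.9 and 69.6% in Col-0 and 33.9, 42.7 and 36.7% in rrc1-689 (limma adjusted p = 0.00353 and 0.00231). AT1G02960, annotated as a kinetochore protein, fell from 59.7% ± 13.8 to 12.4% ± 9.75 in EMS27 and from 58.8% ± 8.52 to 8.0% ± 11.5 in rrc1-689 (limma adjusted p = 0.00461 and 0.00657, n = 3). These events rested on few reads, 60 to 151 per group for AT1G02960.

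Of the 16 events listed for EMS27 alone, 11 were at a higher level and 5 at a lower one. AT1G19330, a histone deacetylase complex subunit, had the largest rise, from 23.1, 28.6 and 41.7% in MLB to 93.5, 75.0 and 100% in EMS27 (limma adjusted p = 0.00432). AT1G79520, a cation efflux family gene that overlaps other annotated loci, rose from 26.8% ± 11.6 to 75.7% ± 4.94 (limma adjusted p = 0.00301, n = 3). AT4G35140, a WD40 repeat gene with 55 and 32 reads per group, went from 25.7% ± 2.65 to 71.3% ± 25.1 (limma adjusted p = 0.0277), and its call was lost without any 1 MLB library (adjusted p = 0.0676, 0.0566 and 0.0724). PCAP1, a cation-binding protein of the plasma membrane, fell from 98.9% ± 0.455 to 88.1% ± 1.74 (limma adjusted p = 0.000879, n = 3). Among Alt5ss events, SKL1, a shikimate kinase-like protein of chloroplasts, fell from 15.1% ± 5.61 to 4.38% ± 1.57 (limma adjusted p = 0.0106), and AT3G26085, a CAAX protease family gene, fell from 57.2% ± 8.47 to 34.1% ± 2.92 (limma adjusted p = 0.0186, and 0.0507 without the second library of either group). SKL1 and AT3G26085 overlap a neighbouring locus. The ribosomal protein gene AT3G02560 had 0 of 933 reads in MLB, which allows up to 0.322%, and 8.86% ± 1.33 in EMS27.

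Of the 16 events listed for rrc1-689 alone, 13 were at a higher level and 3 at a lower one. For these, too, no values exist in EMS27, so a change there is unknown. AT5G57700, a BNR repeat gene, was at 0, 26.3 and 28.6% in Col-0 and 69.7, 81.0 and 41.2% in rrc1-689 (limma adjusted p = 0.0246, and 0.0644 and 0.0827 without the first or second rrc1-689 library). In PP2C52, a protein phosphatase, the Alt5ss event rose from 11.2% ± 6.76 to 52.0% ± 6.73 (limma adjusted p = 0.00283, n = 3). The RING gene AT5G19430 went from 24.4, 28.0 and 0% to 59.5, 59.4 and 52.5% (limma adjusted p = 0.0322), a call that was lost without any 1 of the rrc1-689 libraries (adjusted p = 0.0759, 0.0832 and 0.0677), and AT5G53850, a haloacid dehalogenase-like gene, rose from 12.9% ± 2.25 to 31.2% ± 6.98 (limma adjusted p = 0.00749). LSM6A, a subunit of the ring that binds the U6 spliceosomal RNA, rose by 12.3 points and AtRZ-1c, an RNA-binding protein, by 9.49 points, and the poly(A) polymerase gene nPAP was at 68.8% ± 10.8 and 79.0% ± 4.36 without a call. ARP9, an actin-related protein, fell from 26.1% ± 7.11 in Col-0 to 0 of 64 reads in rrc1-689, which allows up to 4.69%. LSM6A, AtRZ-1c, nPAP, ARP9, PCAP1, LSD1 and AT5G64400 lie outside the rule for named genes and were chosen after their values were seen.

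The 25 shared events moved in the same direction in both mutants, 23 up and 2 down. So did all 136 events that both comparisons list, so the direction is not particular to these events. Both comparisons listed 61.0% of each list of alternative splice site events, against 41.8% and 41.5% of all listed events. Over the 24 shared events with the same junctions in both comparisons, Pearson's r was 0.900 between the changes in points and 0.992 between the levels in MLB and Col-0, as a description over events that share libraries. The change was larger in EMS27 in 16 of the 24 events, and in 18 of 24 the mutants' changes lay within 10 points of each other. The difference between the mutant effects was tested with a limma interaction contrast over 12 libraries, which called 3 of 136 shared events (2.21%). Among the members it called TOM2A (logit difference 2.27 ± 0.51 SE, EMS27 minus rrc1-689, adjusted p = 0.0497) and the Io intron of VLN3 (2.03 ± 0.39, adjusted p = 0.0307), both with the larger change in EMS27. Neither call held with a replicate block (adjusted p = 0.124 and 0.0806), and that of TOM2A was also lost with edgeR (0.17), on the level itself (0.477) and with 1 added to the reads (0.116). With 1 library left out the call was lost for TOM2A in 11 of 12 cases (adjusted p of 0.0567 to 0.159, all but the first MLB library) and for VLN3 in 8 of 12 (0.0574 to 0.1, all but the third Col-0, first EMS27 and first and second MLB libraries). For AT5G08650, whose change was 34.2 points in EMS27 and 12.1 in rrc1-689, the contrast gave 2.86 ± 0.79 and no call (adjusted p = 0.144), whereas edgeR (0.0171), limma on the level itself (0.00124) and limma without the third Col-0 library (0.00302) called it. For the VLN3 event it gave 0.87 ± 1.00 (adjusted p = 0.946) on the logit, and on the level itself limma gave an adjusted p of 0.0166.

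**Figure D2:**
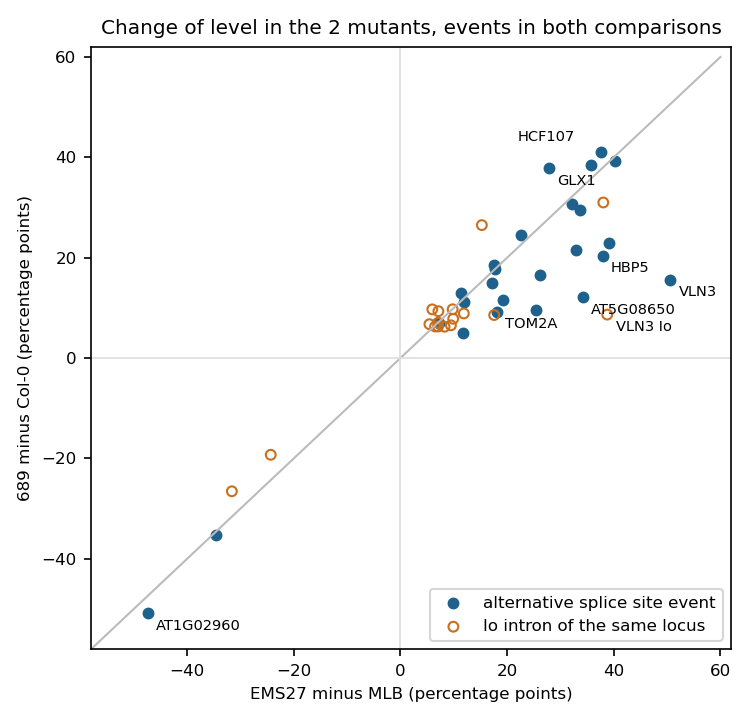
Change of level in percentage points, EMS27 minus MLB (x axis) and rrc1-689 minus Col-0 (y axis), for 25 alternative splice site events (filled) and 17 Io introns (open) listed in both comparisons, with the line of equal change. VLN3 and its Io intron lie farthest below the line, at 50.6 and 38.8 points in EMS27 against 15.6 and 8.66 in rrc1-689.

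In 50 of the 57 genes the event was a simple pair of sites with a common far end, 42 Alt3ss and 8 Alt5ss. At the 42 Alt3ss pairs the distance between sites was 3 to 469 bases with a median of 43, against a median of 16 over 3901 annotated alternative 3' site pairs of TAIR10.1. Of the 42 pairs 38 were 12 or more bases apart, and over the 2308 annotated pairs in that range the median was 37. In 15 pairs (35.7%) the distance was 100 bases or more, and in 19 (45.2%) a multiple of 3. Over all 3901 annotated pairs, those under 12 bases apart included, these shares were 15.5% and 54.7%. These shares stand beside the annotation without a test.

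The site that the mutants used more was the weaker match to the Arabidopsis 3' site in 28 of 42 pairs (66.7%). Both mutants had values for 21 of these pairs, and for the others only the mutant with values is meant. The site gained was taken from the sign of the mean change, whether or not the event was called. Scores are sums of log2 odds over 20 intron and 3 exon bases, from a matrix of all annotated 3' sites. The median score was 4.86 for the site gained in the mutants and 7.39 for the site lost, with a median of 7.59 over all annotated 3' sites. Of the 35 pairs in which the upstream site gained, it scored lower in 24, whereas the upstream site scored lower in 51.3% of the annotated pairs. The upstream site was mostly little used in the controls, with inclusion under 10% in 22 of 34 Alt3ss events in MLB and 26 of 35 in Col-0. The annotated pairs are split by position and not by use. Whether little-used sites score lower regardless of the mutants was not tested. Of the 7 pairs in which the downstream site gained, AT1G55340 among them at 0.12 against 7.37, that site scored lower in 4. HCF109 scored 2.27 at the upstream and 8.84 at the downstream site, TLP11 2.44 and 9.62, E13L3 4.75 and 12.8, and VLN3 3.93 and 9.47. Exceptions included AT5G45510, whose upstream site at 14.8 outscored the downstream one at 9.34, and GLX1 at 7.71 against 6.25. Others were AT3G06880 at 4.79 against 0.83, HINT 2 at 7.98 against 5.27, and further pairs not named here.

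The base before the AG was a C or T at the lost site in 41 of 42 pairs (97.6%) and at the gained site in 29 of 42 (69.0%), against 91.2% of all annotated 3' sites and 80.2% and 80.1% of the upstream and downstream sites of annotated pairs. For annotated pairs 12 or more bases apart these last 2 shares were 83.8% and 84.4%. Among the 21 Alt3ss pairs listed in both comparisons it was a C or T at 20 lost and 13 gained sites. The share of pyrimidines from base -20 to -4 before the exon had the same median, 58.8%, at gained and lost sites. The score contains the base before the AG, so these are not separate findings, and they are descriptions without a test. For this base, too, little-used and much-used sites of annotated pairs were not compared. At the 8 Alt5ss pairs the gained site scored lower in 6.

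**Figure D3:**
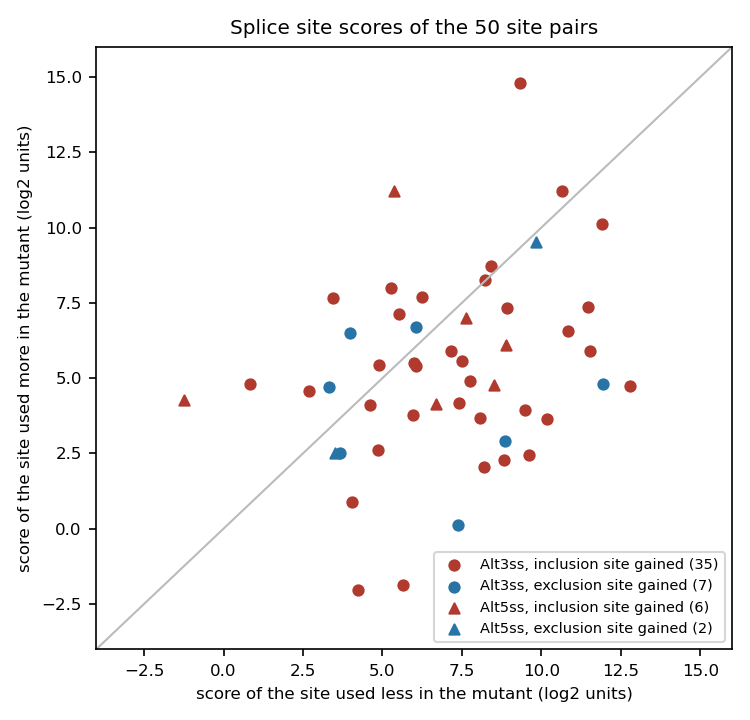
Score of the site that the mutants used more (y axis) against that of the site they used less (x axis), in log2 units, for 50 pairs, with the line of equal score. Of 42 Alt3ss pairs (circles) 28 lie below the line, and of 8 Alt5ss pairs (triangles) 6.

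Read from the start codon of the annotated isoform with the exclusion junction, inclusion of the region gave an earlier stop codon in 22 of 57 genes. In 9 it added whole codons, in 4 it led to another stop codon and a longer frame, in 15 the pair lay outside the coding region, and 7 had no simple pair. Of the 47 genes in which inclusion rose, 20 had the earlier stop. HCF107 would end after 471 codons in place of 652, although its region of 99 bases is a multiple of 3, HCF109 after 391 in place of 456, VLN3 after 727 in place of 965 and AT5G08650 after 612 in place of 681. TTL gained 13 codons, from 311 to 324, and AT1G55340 lost 10 where inclusion fell, from 205 to 195. Protein was not measured, and in CAS1 and AT5G64400 the annotation places the region in the 5' UTR of an isoform with another start codon. In AT5G19430, AT5G53850 and AT3G26085 it is 5' UTR in some isoforms and coding in others. All of these are among the 22, and their earlier stop depends on the start codon that was kept. GLX1, LSD1 and AT5G57700 were counted as outside the coding region by the isoform used, but their regions are coding in other isoforms.

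The Io introns of the same loci mostly moved with the event. In limma 22 of 27 were called higher and 4 lower in EMS27, and 19 and 5 of 25 in rrc1-689, beside the shares of all listed events given above, and 17 introns were listed in both comparisons with the same direction in each. Their deposited level, retention, is made from reads across both ends of the intron over those reads and the exclusion junction, without the inclusion junction. At an alternative site pair one end of the intron is shared by both isoforms, while the other lies inside the exon of the inclusion isoform. Reads at that inside end are therefore counted from the inclusion isoform as well as from a retained intron.

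Reads at the 2 ends changed differently. In the 21 introns with a higher level in EMS27 whose event had junctions with a common end, reads at the inside end went from 354 in MLB to 1330 in EMS27, and reads at the shared end from 86 to 44, while spliced reads of the same events went from 5914 to 5141. These include AT4G17470 and, for rrc1-689, BAG2, whose regions are not simple site pairs. In the 18 such introns of rrc1-689, reads at the inside end went from 405 to 1183 and at the shared end from 73 to 74. The inside end gained reads in 21 of 21 and 18 of 18 introns, the shared end in 5 of 21 and 5 of 18. These introns were taken for a higher level, which is made mostly from inside-end reads. The gain at the inside end is therefore in large part set by that choice. In VLN3 the inside end held 6, 9 and 5 reads in MLB and 98, 99 and 100 in EMS27, and the shared end 0, 0 and 1 against 0, 1 and 0. GLX1 had no read at the shared end in any of the 12 libraries, with 7, 7 and 7 at the inside end in MLB and 28, 23 and 17 in EMS27. E13L3 went from 0, 2 and 0 to 24, 27 and 19 at the inside end in EMS27 and from 1, 0 and 1 to 0, 0 and 0 at the shared end, whereas in rrc1-689 its shared end went from 1, 2 and 0 to 5, 3 and 0. In HCF107, with the deposited level at 11.6% ± 0.357 in MLB and 49.7% ± 4.58 in EMS27, reads at the shared end were 6, 5 and 11 in MLB and 2, 4 and 4 in EMS27.

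**Figure D4:**
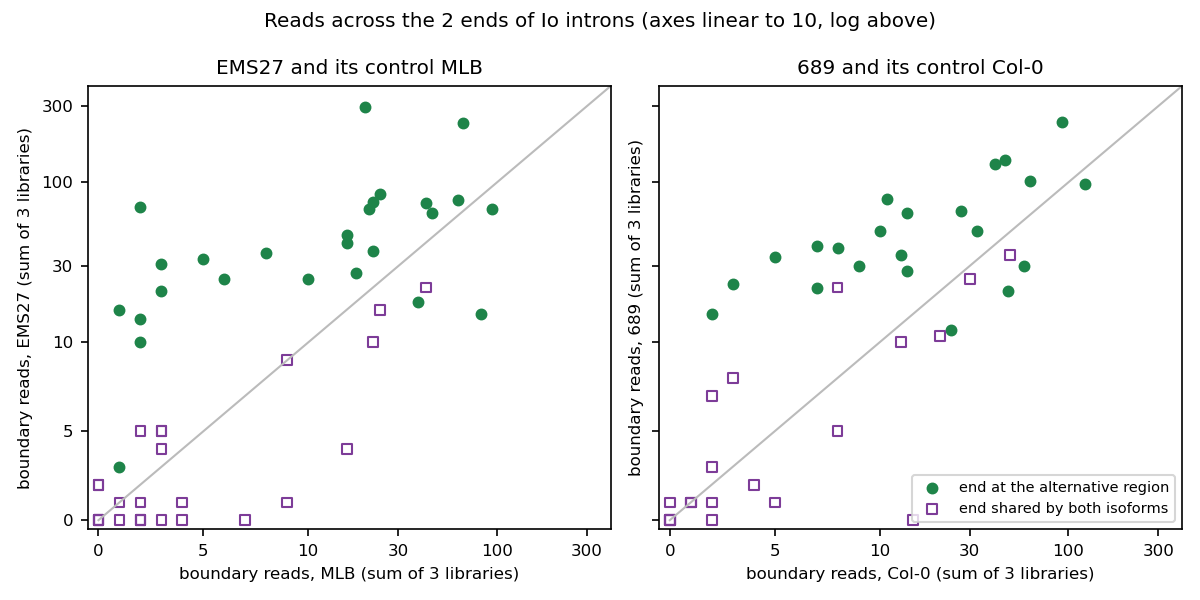
Reads across the ends of Io introns, control (x axis) and mutant (y axis), each the sum of 3 libraries on axes that are linear to 10 and logarithmic above, with the line of equal reads. Filled points (the end at the alternative region) lie above the line in 23 of 26 introns for EMS27 and 18 of 22 for rrc1-689, and open squares (the shared end) in 6 and 5. For EMS27 the introns Io008 and Io010 of AT3G66654 have the same shared end, which is counted under both.

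With retention taken from the shared end alone, as its reads over those and all spliced reads of the event, the 3 mutant and 3 control libraries were apart in 5 of 26 introns for EMS27, all lower, and in 3 of 22 for rrc1-689, 1 higher and 2 lower. By the level as deposited it was 25 of 26 and 22 of 22, beside 89.2% and 92.4% of all listed events. The shared-end measure was not computed for introns of other loci, so its counts have no background share and are descriptions only. The 26 hold 2 introns of AT3G66654 with the same shared end. The 1 higher intron was that of AT5G19430, at 6.2% in Col-0 and 16.4% in rrc1-689. This measure was chosen after seeing the data, and the median shared-end level was 1.47% in MLB, 0.218% in EMS27, 0.686% in Col-0 and 0.422% in rrc1-689. In the mutants 11 of 26 and 6 of 22 shared ends had no read, so small changes of retention were not detectable at this depth. Among the listed introns of other loci with a higher level, the end with fewer reads held a median of 8.0% of the boundary reads in EMS27 (101 introns) and 9.45% in rrc1-689 (108 introns), against 0.336% and 2.86% in the Io introns here. PCAP1 showed the reverse case: its retention fell from 74.5% ± 2.85 to 23.9% ± 10.4, while the reads at both ends were 62 and 2 in MLB and 78 and 1 in EMS27 and the exclusion junction held 3, 5 and 3 reads in MLB and 35, 43 and 46 in EMS27.

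In the authors' deposited table of MLB over EMS27, 4 of the 57 genes (7.02%) passed the thresholds on fold change and FDR, against 5.99% of 19143 genes tested, a share near the background. By the authors' deposited table AT5G08650 (log2 fold change 1.37), AT3G26085 (1.24) and HINT 2 (1.21) were higher in MLB and E13L3 (-1.07) was higher in EMS27. The event of HINT 2 had 172 junction reads in MLB and 77 in EMS27. In the authors' deposited table of MLB in red light over MLB in darkness, 9 of the 57 genes (15.8%) were listed, against 19.5% of 19916 tested, 7 higher in red light and 2 lower. In the authors' deposited table HBP5 (2.25), HCF107 (1.85) and AT5G08650 (1.54) were higher in red light, and PCAP1 (-1.22) and LSD1 (-1.12), a zinc finger protein that restrains cell death, were lower. In whole seedlings fewer cells of a type and less RNA per cell cannot be told apart.

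None of the 57 genes was on the lists of 40 splice site choice factors, 21 core clock genes and 25 light signalling genes. The lists also lack the 5 loci that the rule left out, 4 of which held an alternative splice site event. Absence of members was thus in part fixed by the choice of loci and lists, and is no result about such genes. Genes of those lists had events of other kinds. Among the splice site choice factors 4 had an event in EMS27, 1 called higher and 1 lower, and 4 in rrc1-689, 2 called higher and 1 lower. Among the core clock genes 2 had an event in each comparison, of which the intron of TOC1, an evening repressor of the clock, was called higher in both. Of the light signalling genes COP1, the ubiquitin ligase that degrades light-signalling factors in darkness, had 1 event called higher in EMS27, and none had one in rrc1-689.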

How the data were processed

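Junction and boundary reads came from 12 red-light libraries of 4 groups, 3 each, grouped and numbered by their titles. Reads were aligned with TopHat2 2.1.1 to TAIR10, per the submitters' processing notes, and events were called with ASpli 1.9, per the information sheet. The authors deposited raw read counts per junction and boundary, with the fraction of inclusion or retention per group, the difference of the fractions, and a log2 fold change, p-value and FDR per bin. They listed events with a difference above 0.05 and an FDR below 0.05. For genes the authors deposited log2 fold changes with p-values, listed above an absolute value of 1 and under an FDR of 0.01, per the information sheet. Settings for strand and counting are not given in the sources used here. No column of values per sample was left unused.

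The level per library was computed from the counts, and the deposited fractions were recovered from them within 0.0001 for 325 of 325 and 328 of 328 events. Retention counts the mean of the reads at the 2 intron ends. Logits of these levels, with 0.5 added to both read sums, were fitted over all listed events of a comparison with limma 3.58.1 (R 4.3.3), with Benjamini-Hochberg adjustment and a threshold of 0.05. A permutation test of 1 event with 3 libraries against 3 cannot go below p = 0.1. On simulated data with 325 events for EMS27, calls were made for 93.5% of those moved by 2 logit units, 61.1% of those moved by 1 and 4 of 109 left unmoved. With 328 events for rrc1-689 it was 90.8%, 65.1% and 1 of 110. The simulated libraries were drawn around the level pooled over mutant and control, with the same set spread for every event. Control levels of the member events were mostly under 10%, so these rates may not hold for them. Alternatives were other added amounts, the untransformed level, a minimum of 10 reads, edgeR 4.0.16, a replicate block and leaving out each library. Where a group had no inclusion read, the limit is 3 reads over all its reads, for counting error only.

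Sites were read from the RefSeq assembly TAIR10.1, in which 418 of 419 loci had the same coordinates as in the tables and 472 of 472 exclusion junctions had known intron ends. How many genes were tested was worked out from the ranks of the deposited FDR values. Genes named were every member of both comparisons and, for each comparison and kind of event, the 6 with the largest difference in fraction. PCAP1, LSD1, AT5G64400, LSM6A, AtRZ-1c, nPAP, ARP9 and the list genes TOC1 and COP1 were named after their values were seen. BAG2, also outside this rule, is named only because its region is not a simple site pair. Members and lists were chosen with earlier results of these data known. Members that overlap another locus number 6, and their reads could not be assigned by strand.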

Additional observations from a re-analysis of the deposited data

Results flagged for a closer look

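In 2 results the change differed between the mutants in the test of that difference, the limma interaction contrast with Benjamini-Hochberg adjustment over 136 shared events. The TOM2A event differed by 2.27 on the logit scale (EMS27 minus rrc1-689, adjusted p = 0.0497), with changes of 18.1 and 9.22 percentage points, but this call was lost with a replicate block (0.124), with edgeR (0.17), on the untransformed level (0.477), with 1 added to the reads (0.116) and in 11 of 12 fits with 1 library left out. The Io intron of VLN3 differed by 2.03 (adjusted p = 0.0307), with changes of 38.8 and 8.66 percentage points, and was lost with the block (0.0806) and in 8 of 12 such fits. The mutants differ in allele and in phytochrome B, and these cannot be told apart.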

How the results depend on the processing

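Of the 41 alternative splice site events, 37 were called in EMS27 and 34 to 37 with each library left out. In rrc1-689 it was 39, and 35 to 40 with each library left out. For the Io introns it was 26 in EMS27, with 22 to 25 when each library was left out, and 24 in rrc1-689, with 20 to 24. Of the differences between the mutants 2 were called, and 1 with 1 added to the reads, 4 on the untransformed level, 0 with the replicate block and 0 to 2 with each library left out. The contrast for the HBP5 event was 0.67 and ranged from -0.048 to 1.30 with each library left out, turning without the first Col-0 library. It was not called on the logit, whereas limma on the untransformed level called it (adjusted p = 0.0166). The replicate block gave 37 and 38 called events and 26 and 24 called Io introns, and same-numbered libraries had correlations of -0.078 to 0.109, so the numbers were not taken as pairs. With retention from the shared end, chosen after seeing the data, the introns whose libraries did not overlap went from 25 to 5 and from 22 to 3. This measure leaves out the reads of the inclusion isoform at the other end, and it was not computed for introns of other loci. Among named events, leaving out 1 library ended a call in 27 of 336 fits for EMS27 and 24 of 282 for rrc1-689, uncalled events included, and with 0.1 added 7 of 56 and 4 of 47 named events lost a call. The cause was not tested. Events with few reads, down to 9 in a library, limit the precision of single levels.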
